A study of Mus musculus with 12 samples.

Results

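The 40 genes described here encode ATF4, its best known target genes and the main chaperones and factors of the unfolded protein response. They were chosen by name, with earlier results of these data known, as an amino acid side of 31 genes and an endoplasmic reticulum (ER) side of 9. The choice was from the 23354 genes with a value in all 12 mRNA libraries of the study. All 40 were found, and all 40 were among the 13109 genes that entered the test, which needed at least 1 FPKM (fragments per kilobase of transcript, scaled to the mapped fragments of the library) in at least 2 libraries. The narrower contrast was between an amino acid branch of 10 genes (Atf4, Chac1, Pck2, Asns, Aars, Gars, Sars, Nars, Wars and Mars) and an ER chaperone branch of 4 genes (Hspa5, Hsp90b1, Pdia4 and Xbp1).

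The libraries were made from stably modified J1 mouse embryonic stem cells that grew with serum and leukemia inhibitory factor on inactivated mouse embryonic fibroblast feeders, and there were 2 libraries in each of 6 groups. In the overexpression arm the lines carried extra H3.1, a histone H3 protein, as the wild type (H3.1WT, the control) or with methionine in place of lysine 9 (H3.1K9M) or lysine 36 (H3.1K36M). Such mutants are known to act dominantly and reduce methylation of the matching residue on other H3 molecules. In the knockdown arm the lines carried a short hairpin RNA named for Suv39h1 or for Suv39h2, a pair of H3K9 methyltransferases, or the hairpin shNC, taken here as the control. The series title is about H3K36me3 and single base changes in the genome, and it is asked below how the stress genes differed in each line from its own control. Whether a line was a clone or a pool, and whether the 2 libraries of a group came from separate cultures, was not given in the sources used here. The p-values therefore rest on a spread between libraries that may be only technical.

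Cells that lack amino acids or hold misfolded protein in the ER phosphorylate the translation factor eIF2alpha, which slows protein synthesis in general while translation of ATF4 mRNA goes up. ATF4, a basic leucine zipper protein, then raises genes for amino acid synthesis, uptake and loading onto tRNA, often through composite C/EBP-ATF elements near their start sites. Misfolded protein in the ER also activates ATF6 and IRE1, whose product is spliced XBP1, and these raise chaperones such as BiP through ER stress elements. ATF4 is controlled to a large extent by translation, and the mRNA levels given here do not measure the protein.

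The promoters of 4 members show examples of matches to the composite and ER stress elements. They are the 250 bases before the RefSeq start site on GRCm38.p6, 5' to 3', all on the plus strand, with capitals over each match. Chac1 (chr2:119350992-119351241) and Pck2 (chr14:55540016-55540265) are shown for the composite element core on the amino acid side, Hspa5 (chr2:34771840-34772089) for the ER stress element (ERSE), and Herpud1 (chr8:94386179-94386428) because it holds both kinds.
Chac1: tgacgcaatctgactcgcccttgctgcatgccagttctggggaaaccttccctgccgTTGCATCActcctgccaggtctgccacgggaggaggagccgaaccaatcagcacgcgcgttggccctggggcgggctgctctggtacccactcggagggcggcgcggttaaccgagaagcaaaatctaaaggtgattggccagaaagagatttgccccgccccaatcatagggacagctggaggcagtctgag
Pck2: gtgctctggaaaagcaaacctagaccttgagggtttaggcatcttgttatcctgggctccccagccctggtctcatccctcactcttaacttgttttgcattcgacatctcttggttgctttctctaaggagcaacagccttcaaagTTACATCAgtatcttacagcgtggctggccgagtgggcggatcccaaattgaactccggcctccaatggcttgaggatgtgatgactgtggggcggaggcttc
Hspa5: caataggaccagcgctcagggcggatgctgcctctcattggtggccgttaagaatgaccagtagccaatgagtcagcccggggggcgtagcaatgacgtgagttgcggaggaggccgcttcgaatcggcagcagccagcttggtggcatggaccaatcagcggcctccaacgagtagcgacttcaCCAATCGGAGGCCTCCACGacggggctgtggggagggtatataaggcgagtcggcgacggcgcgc
Herpud1: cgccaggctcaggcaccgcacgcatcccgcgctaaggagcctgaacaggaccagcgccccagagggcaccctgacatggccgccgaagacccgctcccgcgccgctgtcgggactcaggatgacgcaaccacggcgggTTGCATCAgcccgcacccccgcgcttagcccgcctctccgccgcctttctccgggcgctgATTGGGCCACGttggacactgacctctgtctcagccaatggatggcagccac
In Chac1, Pck2 and the first match of Herpud1 the capitals are the core read from the opposite strand.

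For each gene, RefSeq windows from 250 bases before to 50 after the start site were searched on both strands for the core TGATGNAA, for ERSE (CCAAT, 9 bases of any kind and CCACG) and for ERSE-II (ATTGG, 1 base of any kind and CCACG). None of the 3 overlapped another in the 4 printed windows. At least 1 window was matched for each of 34 members, and a gene was counted once, whichever of its windows held the match; the 6 others were Slc7a5, Slc7a3, Nars, Wars, Eif4ebp1 and Hyou1. The core was found in 10 of 26 amino acid side genes (38.5%), in 1 of 8 on the ER side (12.5%) and in 4.51% of 27025 genes. Its holders were Atf3, Trib3, Nupr1, Asns, Pck2, Chac1, Slc7a11, Aars, Gars, Vldlr and Herpud1. ERSE was found in Hspa5, Hsp90b1 and Creld2, which is 3 of 8 ER side genes (37.5%), in none of 26 on the amino acid side and in 0.137% of all genes. ERSE-II was found in Herpud1 alone among the members and in 0.0444% of all genes. A match describes the letters of a window and does not show that a factor binds there.

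Depth, recovered from the steps between low values, put 1 FPKM of a 2 kb transcript at about 41.8 to 55.1 fragments per library, and members ranged from 0.94 FPKM (Slc7a11) to 366 FPKM (Eif4ebp1). Suv39h2 was at 1.61 and 1.76 FPKM in the shSuv39h2 libraries against 4.80 and 4.78 in shNC (adjusted p = 0.000304). Suv39h1 was at 4.91 and 5.10 FPKM in shSuv39h1 against 8.58 and 7.52 (adjusted p = 0.0877), so the label of that line did not pass the test on its target. Libraries of a group differed most in H3.1K9M, with an SD of 0.41 over tested genes for the log2 difference between its libraries, and in shNC, with 0.345, against 0.223 to 0.26 in the other groups. Among the 24 feeder markers fixed for the check, summed levels were 524 and 951 FPKM in H3.1WT, 1820 and 875 in H3.1K9M, 1230 and 1200 in H3.1K36M, 616 and 911 in shNC, 686 and 405 in shSuv39h1 and 900 and 709 in shSuv39h2, and 1 marker was at 0, in 1 shSuv39h1 library. All 10 embryonic stem cell markers were above 1 FPKM in every library, and 3 of them rose in H3.1K36M (Nanog, Tfcp2l1 and Fgf4) and 3 in shSuv39h2 (Pou5f1, Klf4 and Utf1). In bulk RNA, fewer cells of a type and less RNA per cell cannot be told apart.

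Genes of the amino acid side rose in shSuv39h2 and, in smaller number, fell in H3.1K36M, where ER genes rose. In shSuv39h2, 12 of the 40 members rose against shNC and none fell, beside 10.0% of all tested genes called (5.35% higher, 4.69% lower). These were Atf4, Trib3, Psat1, Shmt2, Pck2, Chac1, Slc3a2, Slc7a5, Slc7a1, Aars, Sesn2 and the ER gene Herpud1. In H3.1K36M, 4 members fell against H3.1WT, Atf4, Atf3, Pck2 and Stc2, and 2 rose, the ER genes Pdia4 and Creld2, beside 4.84% of all tested genes called (3.1% higher, 1.74% lower). In shSuv39h1, Atf4 rose and no other member was called, beside 0.145% of all tested genes (0.0839% higher, 0.061% lower). In H3.1K9M no member was called by limma, beside 0.313% of all tested genes (0.0229% higher, 0.29% lower), and 3 members had an unadjusted p under 0.05 (Nupr1, Atf4 and Creld2), which 11.2% of all tested genes also had. The median log2 fold change of the members was 0.31 in shSuv39h2, 0.22 in shSuv39h1, -0.11 in H3.1K36M and 0.05 in H3.1K9M, against 0.04, 0.04, 0.03 and -0.01 over all tested genes. By sign, of all 13109 tested genes 7506 were higher than the control in shSuv39h2, 8032 in shSuv39h1, 7343 in H3.1K36M and 6238 in H3.1K9M. The sign counts of gene groups given below stand beside these. Calls are adjusted p-values under 0.05 from limma on log2(FPKM + 1) with Benjamini-Hochberg adjustment over the tested genes. Libraries did not overlap and were higher than the control for 27 members in shSuv39h1 (26.8% of all tested genes), 26 in shSuv39h2 (29.5%) and 5 in H3.1K9M (14.6%), and lower for 25 in H3.1K36M (27.6%). In the other direction, 9 members were higher in H3.1K36M (5012 of all 13109 tested genes). Lower without overlap were 4 in shSuv39h2 (2793), 2 in H3.1K9M (2694) and 0 in shSuv39h1 (1659). The mutants share the H3.1WT libraries and the knockdowns share the shNC libraries, so the comparisons within an arm are not independent.

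**Figure D1:**
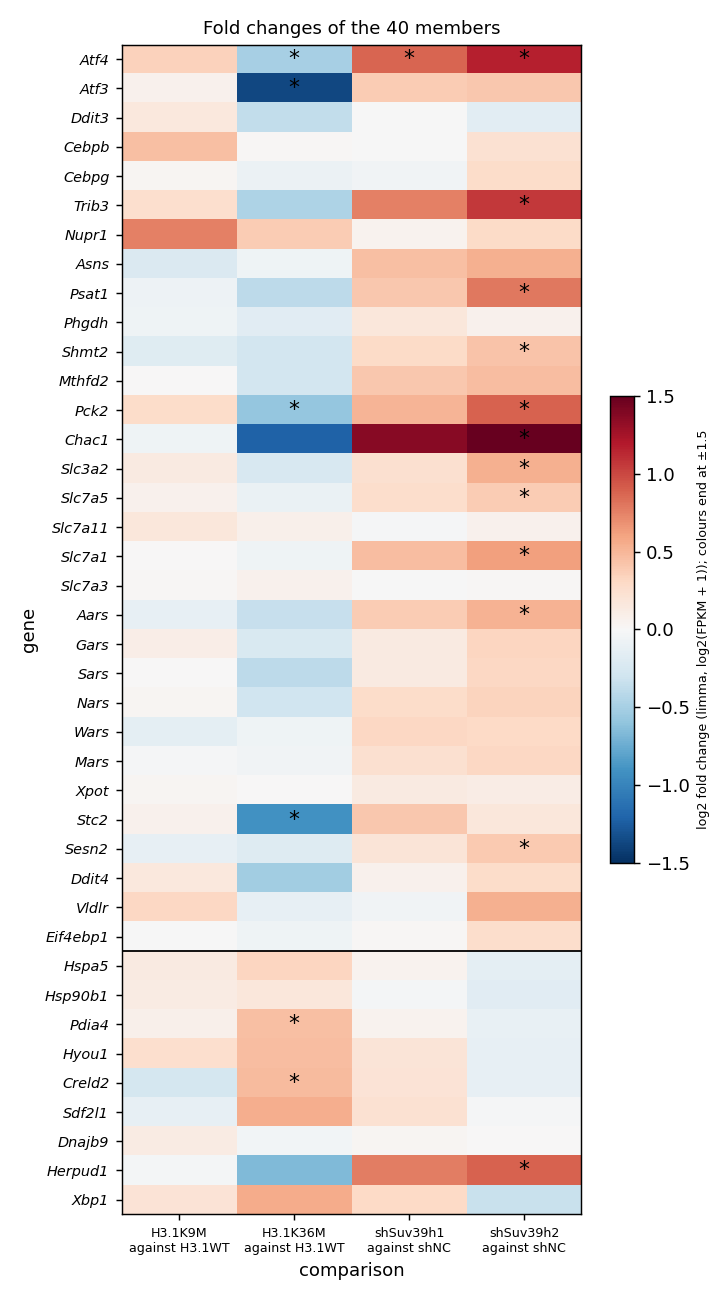
Log2 fold change of each of the 40 members (rows, ordered by role) in the comparisons (columns), from blue (lower) to red (higher), with called members marked. The Atf4 row is red in both knockdowns (0.87 and 1.17) and blue in H3.1K36M (-0.50), and the rows of Pdia4 and Creld2 are red in H3.1K36M (0.45 and 0.48).

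Leaving out libraries moved these counts. In shSuv39h2 against shNC, 4 members were called without shNC replicate 1, 9 without shNC replicate 2, 4 without shSuv39h2 replicate 1 and 6 without replicate 2, with Atf4, Pck2, Slc3a2 and Slc7a1 called each time. In H3.1K36M against H3.1WT, no member was called when either H3.1WT replicate 1 or H3.1K36M replicate 2 was missing, 1 was called without H3.1K36M replicate 1, and 2 without H3.1WT replicate 2. In H3.1K9M against H3.1WT, 6 were called without H3.1K9M replicate 2. Scaling moved single calls both ways. Against its control, Pdia4 missed the threshold in H3.1K36M under median-of-ratios scaling, and Herpud1 passed there under both scalings. In shSuv39h2, Sesn2 missed it under both, Aars and Slc7a5 missed it under quantile scaling, and Vldlr passed under quantile scaling. With no filter Aars, Psat1 and Shmt2 missed it in shSuv39h2. Over left-out libraries the log2 fold change there ran from 0.72 to 0.86 for Psat1 and from 0.39 to 0.48 for Shmt2. It ran from 0.34 to 0.43 for Slc7a5 and from 0.29 to 0.50 for Sesn2.

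Atf4, on chromosome 15 (80255184 to 80257541, plus strand, GENCODE M21 on GRCm38), was the only member called in both knockdowns. Its levels were 48.6 and 55.1 FPKM in shNC, 96.1 and 95.2 in shSuv39h1 and 127 and 109 in shSuv39h2. Neither knockdown overlapped the control. The ratio of means was 1.84 in shSuv39h1 (log2 fold change 0.87, SE 0.102, adjusted p = 0.0224) and 2.28 in shSuv39h2 (1.17, SE 0.102, adjusted p = 0.00034). By p-value Atf4 stood at rank 4 of 13109 genes in shSuv39h1 and at rank 22 in shSuv39h2. The shSuv39h1 call was lost without shNC replicate 1 (adjusted p = 0.13), without shSuv39h1 replicate 1 (0.314) and without shSuv39h1 replicate 2 (0.232), with log2 fold changes from 0.78 to 0.96 over all left-out libraries.

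In the overexpression arm Atf4 was at 82.2 and 81.4 FPKM in H3.1WT, 96.2 and 112 in H3.1K9M and 57.0 and 57.8 in H3.1K36M. H3.1K36M lay below and H3.1K9M above the control, with no overlap. The fall to 70.2% of the control in H3.1K36M passed (-0.50, SE 0.102, adjusted p = 0.0232), and the difference in H3.1K9M did not (0.34, adjusted p = 0.272). In order of the mean, Atf4 was lowest in shNC (51.9 FPKM), then H3.1K36M (57.4), H3.1WT (81.8), shSuv39h1 (95.6), H3.1K9M (104) and shSuv39h2 (118). The arms may have been normalized separately, so neighbours from different arms in this order were not compared. Whichever library of H3.1WT or H3.1K36M was left out, the difference in H3.1K36M kept its size (-0.51 to -0.49) and missed the threshold (adjusted p from 0.112 to 0.179).

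**Figure D2:**
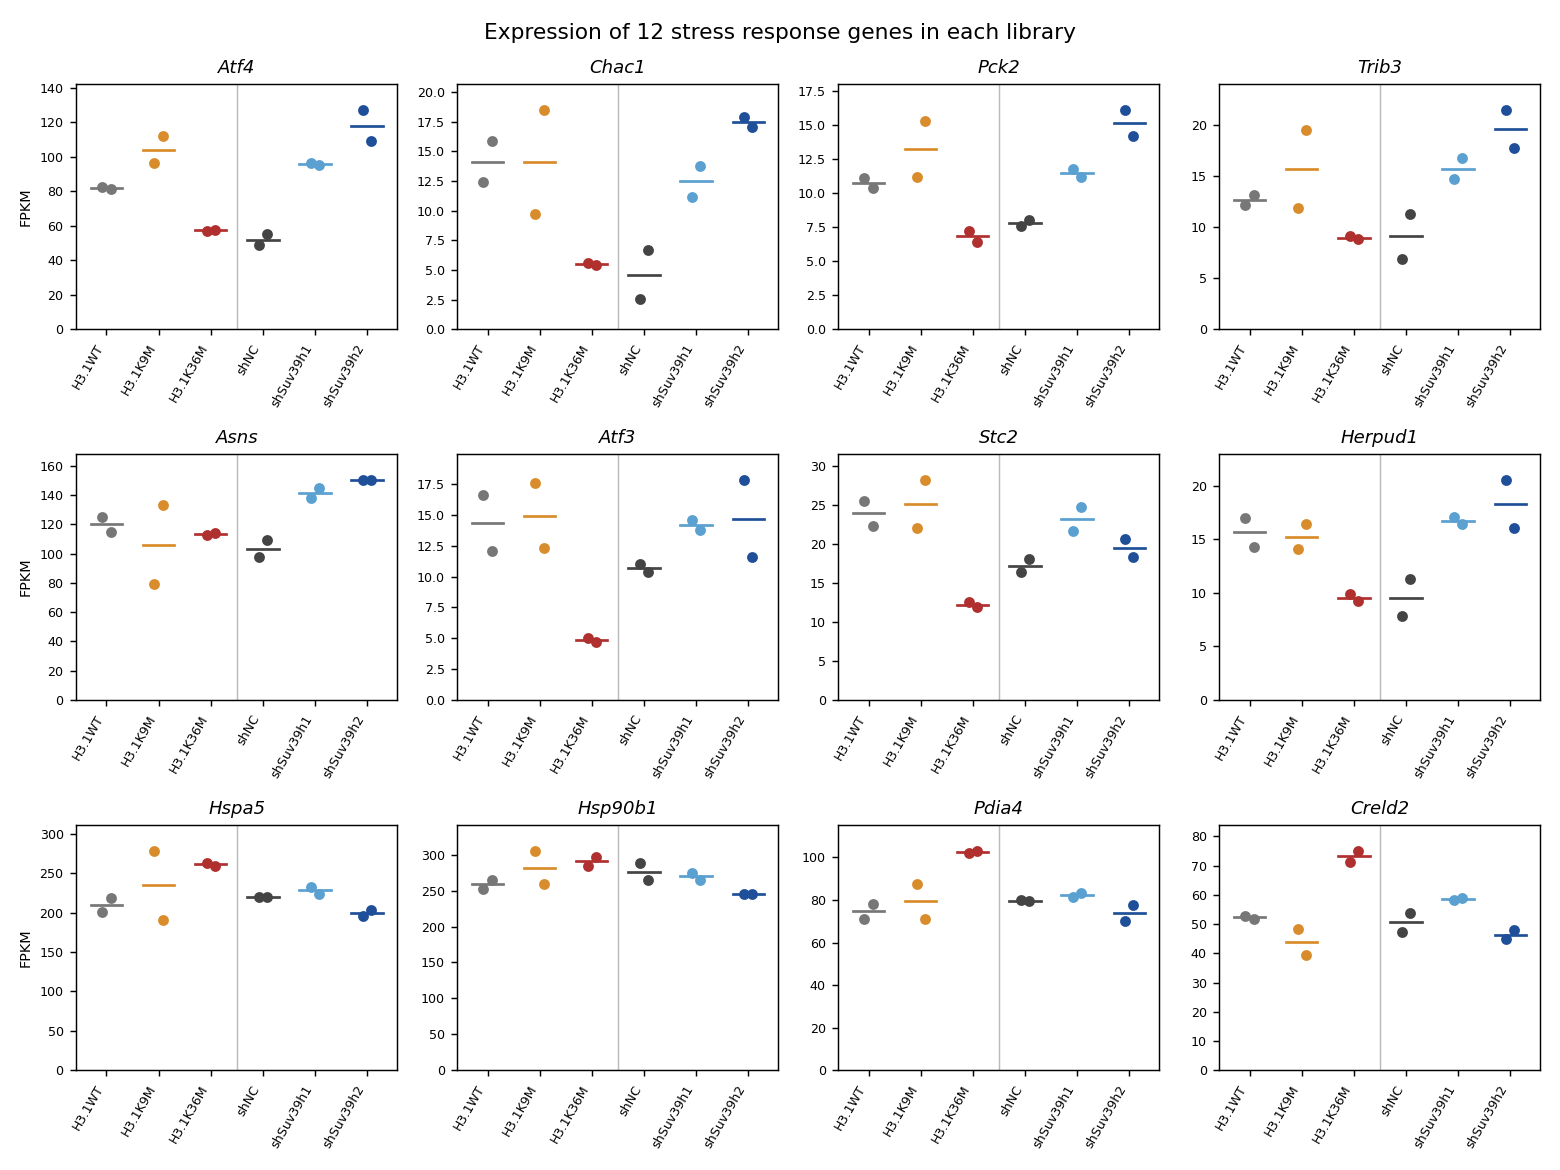
FPKM (linear axes from 0) of 12 members in each library, points for libraries and bars for the mean of a group, with a grey line between the arms. In the overexpression arm Atf4 lies at 57.0 and 57.8 FPKM in H3.1K36M and at 81.4 or more in the other groups, and Pdia4 and Creld2 are highest in H3.1K36M. In the knockdown arm Atf4 lies at 48.6 and 55.1 FPKM in shNC and at 95.2 or more in the other groups.

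Of the 7 transcription and feedback factors, Atf4 and Trib3 rose in shSuv39h2 and Atf4 and Atf3 fell in H3.1K36M. By sign 6 of the 7 were higher in shSuv39h2 than in shNC and 5 lower in H3.1K36M than in H3.1WT (6 under either other scaling). Atf3, a stress-induced partner and competitor of ATF4, was at 16.6 and 12.1 FPKM in H3.1WT and 5.03 and 4.66 in H3.1K36M. It fell to 33.8% of the control, the largest fall of any member there (-1.37, SE 0.212, adjusted p = 0.00729). In the knockdown arm it was at 11.0 and 10.4 FPKM in shNC, 14.6 and 13.8 in shSuv39h1 and 17.8 and 11.6 in shSuv39h2, which lay above the control in every library but passed in neither comparison (adjusted p = 0.591 and 0.276). Trib3, a pseudokinase that feeds back on ATF4, was at 6.93 and 11.3 FPKM in shNC, 14.7 and 16.8 in shSuv39h1 and 21.5 and 17.8 in shSuv39h2. It rose in shSuv39h2 (1.06, SE 0.233, adjusted p = 0.0205), and in shSuv39h1 its value was 0.76 (adjusted p = 0.299).

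Nupr1, a small stress protein of chromatin, had the smallest p of any member in H3.1K9M. It was at 34.3 and 33.5 FPKM there against 17.5 and 22.3 in H3.1WT (0.75, SE 0.128, adjusted p = 0.0567). The libraries did not overlap, and the value passed under median-of-ratios and quantile scaling. The other members of smallest p there were Atf4, Creld2 (-0.26, adjusted p = 0.402) and Hyou1, a co-chaperone of BiP (0.25, adjusted p = 0.468). Ddit3, which encodes the pro-apoptotic factor CHOP, was not called in any comparison, and its libraries within a group differed widely, as at 35.1 and 20.3 FPKM in shNC and 20.3 and 42.2 in H3.1K9M. Cebpb and Cebpg, C/EBP partners of ATF4, were called in no comparison either (log2 fold changes from -0.44 to 0.45). In the annotation 7 members overlap another coding gene. Aars shares 1326 bases with Exosc6 on the same strand. On opposite strands Slc7a5 shares 26545 bases with Gm20388, Cebpb 908 with Tmem189, Wars 544 with Wdr25, Ddit3 and Mars 68 with each other and Shmt2 32 with Ndufa4l2, and Suv39h2 shares 8316 with Dclre1c. Values of these genes are uncertain to that extent, since the strand setting of the counting was not given in the sources used here.

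Enzymes of amino acid and folate metabolism had higher means than the control in both knockdowns, 7 of 7, and lower means in H3.1K36M, 7 of 7, and these signs held under quantile and median-of-ratios scaling. Of the 7, 4 rose in shSuv39h2 and 1 fell in H3.1K36M. Chac1, an enzyme that breaks down glutathione, had the largest change of any member. It was at 2.53 and 6.70 FPKM in shNC, 11.2 and 13.8 in shSuv39h1 and 17.9 and 17.1 in shSuv39h2, and both knockdowns lay above the control. Its mean was 3.8 times the control in shSuv39h2 (1.83, SE 0.345, adjusted p = 0.0113). In shSuv39h1 the value was 1.37 (adjusted p = 0.207). The size rests on which shNC library is used: with a library left out it ran from 1.27 (without shNC replicate 1) to 2.39 (without shNC replicate 2) in shSuv39h2 and from 0.80 to 1.93 in shSuv39h1, by the same libraries. The shSuv39h2 call was lost without shNC replicate 1 (1.27, adjusted p = 0.0514), without shSuv39h2 replicate 1 (0.0723) and without shSuv39h2 replicate 2 (0.0667).

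Chac1 was at 12.4 and 15.9 FPKM in H3.1WT and at 5.62 and 5.45 in H3.1K36M, with no overlap, yet missed the threshold (-1.21, SE 0.345, adjusted p = 0.0847). In H3.1K9M its libraries stood on either side of the control, at 9.72 and 18.5 FPKM. Pck2, the mitochondrial phosphoenolpyruvate carboxykinase, was called in both arms. It was at 11.1 and 10.4 FPKM in H3.1WT and 7.22 and 6.44 in H3.1K36M, a fall to 63.7% (-0.58, SE 0.132, adjusted p = 0.0377). That call was lost with no filter, in a fit of this arm alone and with a replicate block. Over left-out libraries the value of Pck2 ran from -0.66 to -0.51. In the knockdown arm all groups were apart. There Pck2 was at 7.56 and 8.01 FPKM in shNC, 11.8 and 11.2 in shSuv39h1 and 16.1 and 14.2 in shSuv39h2, with the groups in that order and no overlap. The rise passed in shSuv39h2 (0.88, adjusted p = 0.00446) and not in shSuv39h1 (0.51, adjusted p = 0.211).

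Asns, the asparagine synthetase, is a classical ATF4 target and passed in no comparison with a control in the fit over all libraries. It was at 97.6 and 109 FPKM in shNC, 138 and 145 in shSuv39h1 and 150 and 150 in shSuv39h2, above the control in every knockdown library but past the threshold in neither comparison (0.45 and 0.53, adjusted p = 0.44 and 0.105). In a fit of the knockdown arm alone it passed in shSuv39h2 (adjusted p = 0.0221). It was at 125 and 115 FPKM in H3.1WT, 113 and 114 in H3.1K36M (-0.07, adjusted p = 0.862) and 79.2 and 133 in H3.1K9M, where the libraries again lay on either side of the control. Without H3.1K9M replicate 2 it was lower there (-0.59, adjusted p = 0.0277). Psat1, of serine synthesis, was at 115 and 126 FPKM in shNC and 217 and 201 in shSuv39h2 (0.79, adjusted p = 0.0374). Shmt2, of mitochondrial folate metabolism, was at 92.7 and 98.8 FPKM in shNC and 126 and 132 in shSuv39h2 (0.43, adjusted p = 0.0385). Phgdh, which acts upstream of Psat1, was at 110 and 107 FPKM in shNC and 115 and 112 in shSuv39h2 (0.06, adjusted p = 0.722).

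Amino acid transporters split by gene. Slc3a2, the shared heavy chain of several exchangers, was at 111 and 107 FPKM in shNC, 128 and 129 in shSuv39h1 and 164 and 151 in shSuv39h2. The groups did not overlap, and it rose in shSuv39h2 (0.53, SE 0.0732, adjusted p = 0.00326). Its partner Slc7a5, the light chain of the large neutral amino acid transporter, was at 93.2 and 95.7 FPKM in shNC and 127 and 119 in shSuv39h2 (0.38, adjusted p = 0.0381). Slc7a1, a carrier of cationic amino acids, was at 10.5 and 12.7 FPKM in shNC, 16.4 and 16.1 in shSuv39h1 and 18.0 and 18.3 in shSuv39h2. It rose in shSuv39h2 (0.61, adjusted p = 0.00512) and was not called in shSuv39h1 (0.46, adjusted p = 0.129). Slc7a3, of the same carrier family, had a log2 fold change of 0.02 in shSuv39h2, and the cystine carrier Slc7a11 one of 0.07 at 0.94 to 2.09 FPKM. In H3.1K36M against H3.1WT no transporter was called, and Slc3a2 was at 97.0 and 98.3 FPKM against 121 and 111 (-0.24, adjusted p = 0.101).

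All 6 tRNA synthetases and Xpot, the tRNA export factor, had higher means in shSuv39h2 than in shNC, by 0.11 to 0.52 on the log2 scale, and 1 of the 7 passed. Aars, which loads alanine, was at 97.1 and 111 FPKM in shNC and 152 and 146 in shSuv39h2 (0.52, SE 0.139, adjusted p = 0.0448). In shSuv39h1 the 7 values ran from 0.13 to 0.38, and in H3.1K36M from -0.39 (Sars, 67.5 and 61.3 FPKM in H3.1WT and 48.8 and 49.0 in H3.1K36M, adjusted p = 0.161) to 0.01 (Xpot), with no call in either. Wars and Mars, among the synthetases, had the values nearest to 0 in H3.1K36M, at -0.06 and -0.05.

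Of the 5 stress effectors, Stc2 and Sesn2 were called, each in a different arm. Stc2, a secreted glycoprotein, was at 25.5 and 22.3 FPKM in H3.1WT and 12.5 and 11.9 in H3.1K36M, and fell to 51.1% (-0.91, SE 0.128, adjusted p = 0.00458). It was at 16.4 and 18.0 FPKM in shNC and 20.6 and 18.3 in shSuv39h2, nearly touching the control (0.17, adjusted p = 0.459). Sesn2, an inhibitor of the growth kinase mTORC1, was at 37.8 and 38.0 FPKM in shNC and 53.9 and 46.6 in shSuv39h2, and rose (0.39, adjusted p = 0.0331). Ddit4, another mTORC1 inhibitor, varied within groups, from 126 to 242 FPKM in shNC and from 112 to 298 in H3.1K9M, and was called in no comparison. Without 1 library, Stc2 stayed past the threshold in H3.1K36M without H3.1WT replicate 2 (adjusted p = 0.0231) and without H3.1K36M replicate 1 (0.0483), and missed it without H3.1WT replicate 1 (0.0565) and without H3.1K36M replicate 2 (0.061). Atf3 stayed past it without H3.1WT replicate 2 (0.0218) and missed it without each of the others (0.0647 to 0.0812).

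On the ER side 2 genes rose in H3.1K36M and none fell, and 7 of the 9 had higher means there than in H3.1WT. Pdia4, a disulfide isomerase of the ER, was at 71.3 and 78.0 FPKM in H3.1WT and 102 and 103 in H3.1K36M (0.45, SE 0.101, adjusted p = 0.0377). Creld2, an ER-resident stress protein, was at 52.9 and 51.7 FPKM in H3.1WT and 71.4 and 75.0 in H3.1K36M (0.48, SE 0.103, adjusted p = 0.0326). Neither call held when any library of the pair of groups was left out, though Pdia4 kept values from 0.39 to 0.51 and Creld2 from 0.44 to 0.51. Hspa5, which encodes the master chaperone BiP, was at 201 and 218 FPKM in H3.1WT and 263 and 259 in H3.1K36M, with no overlap and no call (0.32, adjusted p = 0.237). Hsp90b1, the ER form of HSP90, was at 252 and 265 FPKM against 284 and 297 (0.17, adjusted p = 0.32). Xbp1 was at 19.9 and 23.2 FPKM against 31.6 and 32.9 (0.56, adjusted p = 0.0926), as total mRNA of the gene, which does not tell the spliced form.

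In shSuv39h2 the ER chaperone branch had lower means than in shNC, and none of its 4 genes was called. Hspa5 was at 195 and 203 FPKM against 220 and 220 in shNC (-0.15, adjusted p = 0.566), and Hsp90b1 at 245 and 245 against 288 and 264 (-0.17, adjusted p = 0.261). Pdia4 was at 70.2 and 77.8 FPKM against 79.8 and 79.7 (-0.11, adjusted p = 0.558), and Xbp1 at 14.3 and 16.6 against 16.4 and 23.6, which overlapped (-0.33, adjusted p = 0.241). In shSuv39h1 the same genes had values of 0.05, -0.03, 0.05 and 0.30, also without a call.

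Herpud1, a membrane protein of ER-associated degradation, had the signs of the amino acid genes and not those of the chaperones. It was at 7.80 and 11.3 FPKM in shNC, 17.1 and 16.4 in shSuv39h1 and 20.5 and 16.1 in shSuv39h2. It rose in shSuv39h2 (0.88, SE 0.168, adjusted p = 0.0118), and in shSuv39h1 the value was 0.77 (adjusted p = 0.145). In H3.1K36M it was at 9.86 and 9.20 FPKM against 17.0 and 14.3 in H3.1WT (-0.66, adjusted p = 0.0593), with no overlap. Its promoter, printed above, holds the core TGATGNAA as well as ERSE-II. Over the 11 members with the core, 5 rose in shSuv39h2 and all 11 had positive values, with a median of 0.53, and over the 23 without it 6 rose and the median was 0.23. In H3.1K36M the medians were -0.35 and -0.09. The core was in 10 of 26 amino acid side genes and in 1 of 8 ER side genes, so core and side cannot be told apart in these medians.

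Set against each other, the branches pointed apart in both H3.1K36M and shSuv39h2, with opposite signs. The median log2 fold change of the amino acid branch was -0.33 in H3.1K36M and 0.43 in shSuv39h2, and that of the ER chaperone branch 0.38 and -0.16. By library, the amino acid branch minus the ER branch was -0.70 and -0.72 in H3.1K36M, 0.64 and 0.55 in shSuv39h2 and 0.25 and 0.35 in shSuv39h1. Over the whole sides of 31 and 9 genes the difference of medians in shSuv39h1 was 0.05, against 0.30 for the narrower branches. There 8 of the 9 ER genes had higher means than in shNC (7 under quantile and 5 under median-of-ratios scaling), as had 8032 of all 13109 tested genes. These comparisons with H3.1K36M and with shSuv39h2 share no library. All 10 amino acid branch genes were lower in H3.1K36M and higher in shSuv39h2 by sign, and 25 of the 31 genes of the whole amino acid side (80.6%), against 25.2% of all tested genes. All 4 ER branch genes, and 7 of 9 on the whole ER side (77.8%), were higher in H3.1K36M and lower in shSuv39h2, against 24.0% of all tested genes. The genes and branches were chosen with earlier results of these data known. These shares therefore describe the chosen genes and are not an independent test of the contrast. Of the 4 members that fell in H3.1K36M and the 12 that rose in shSuv39h2, 2 were shared, Atf4 and Pck2, which is 50.0% of the first and 16.7% of the other list. In H3.1K36M the calls of both were lost in a fit of that arm alone and with a replicate block.

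**Figure D3:**
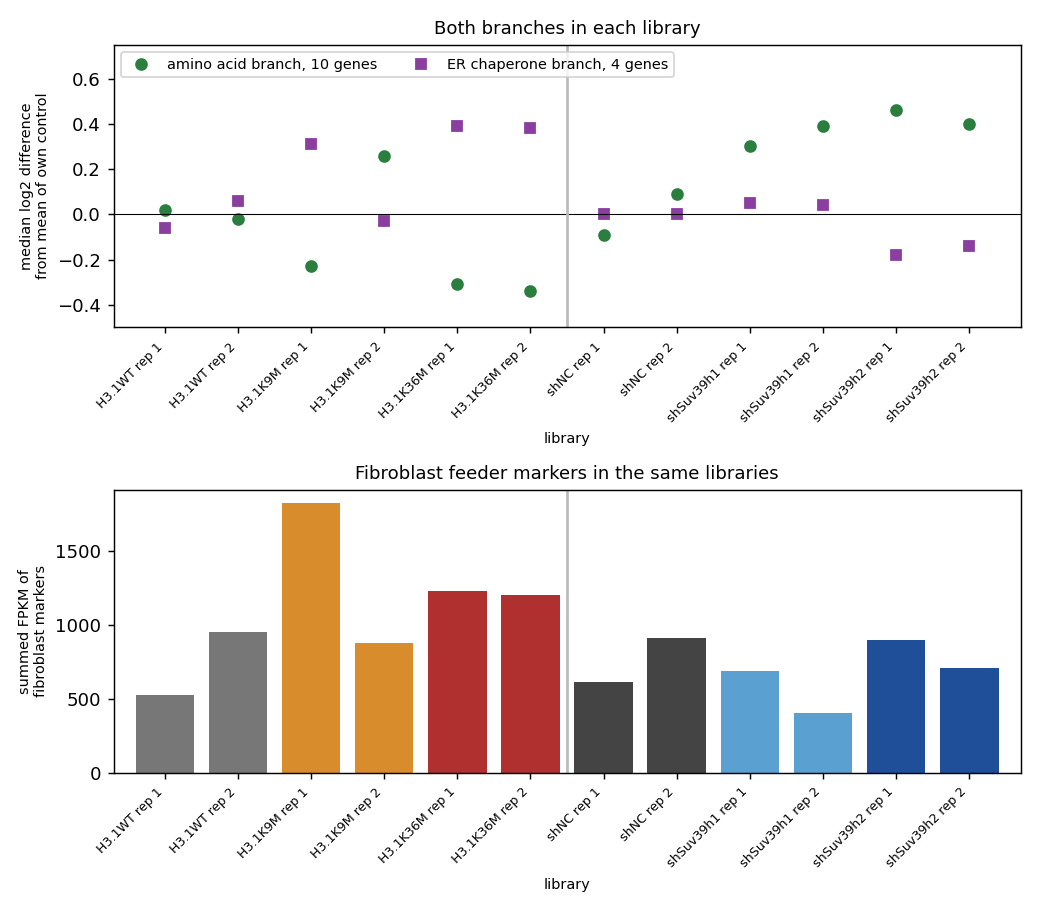
Upper panel, median log2 difference of each library from the mean of its own control group for the amino acid branch (10 genes, circles) and the ER chaperone branch (4 genes, squares); lower panel, summed FPKM of 24 fibroblast feeder markers in the same libraries. The branches are apart in both H3.1K36M libraries and, the other way round, in both shSuv39h2 libraries, while the H3.1K9M libraries differ from each other in the order of the branches and in feeder level (1820 and 875 FPKM).

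The H3.1K9M libraries disagreed. In replicate 1 the amino acid branch was at -0.23 and the ER branch at 0.31, and in replicate 2 they were at 0.26 and -0.03. Replicate 1 had the highest summed feeder markers of all libraries, and both H3.1K36M libraries had more than either H3.1WT library. Of 23 tested feeder markers, 3 rose in H3.1K36M (Col3a1, Col6a2 and Postn, median of the list 0.75) and none was called in H3.1K9M (median also 0.75). In shSuv39h2 the feeder sums, 900 and 709 FPKM, overlapped those of shNC, with a list median of 0.08 and 1 marker lower (Thy1), and in shSuv39h1 the median was -0.42. Markers of other cell states also differed with these groups. Nanog (0.97, adjusted p = 0.0129), Tfcp2l1 (0.89, 0.00534) and Fgf4 (0.66, 0.0331), of embryonic stem cells, rose in H3.1K36M. Pou5f1 (0.43, 0.0135), Klf4 (0.53, 0.00996) and Utf1 (0.39, 0.0179) rose in shSuv39h2. By sign 9 of the 10 embryonic stem cell markers were higher in H3.1K36M (median 0.21), and Pou5f1 was lower (-0.30, adjusted p = 0.0848). In shSuv39h2 8 were higher (median 0.18), and Nanog (-0.12) and Zfp42 (-0.20) were lower. In H3.1K9M 9 were lower (median -0.19), and none was called. Of 5 tested endoderm markers, Gata4 fell in H3.1K36M (-0.54, adjusted p = 0.0331) and rose in shSuv39h2 (0.65, 0.00996), and Lama1 rose in H3.1K36M (1.16, 0.000467) and in shSuv39h1 (0.92, 0.0224). The summed level of the 8 endoderm markers was 110 and 153 FPKM in H3.1WT, 224 and 142 in H3.1K9M and 236 and 233 in H3.1K36M. In the knockdown arm it was 150 and 172 in shNC, 161 and 147 in shSuv39h1 and 143 and 136 in shSuv39h2. Most of this sum was Sparc, with means of 116 FPKM in H3.1WT and 206 in H3.1K36M (0.84, adjusted p = 0.065). By sign 3 of the 5 tested markers were higher in H3.1K36M and 2 lower, and 5 of the 8 were under 1 FPKM in both its libraries. The part of feeder RNA or of these cell states in the branch difference was not tested.

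Between H3.1K36M and H3.1K9M directly, 5 members were lower in H3.1K36M (Atf4, Atf3, Stc2, Pck2 and Slc3a2) and 2 were higher (Creld2 and Sdf2l1), beside 8.24% of all tested genes called (5.57% higher, 2.67% lower). Atf4 differed by -0.84 (adjusted p = 0.00119), Atf3 by -1.43 (0.00353), Stc2 by -0.97 (0.00189), Pck2 by -0.85 (0.00459) and Slc3a2 by -0.38 (0.0141). Creld2 was at 48.4 and 39.4 FPKM in H3.1K9M, and 0.73 higher in H3.1K36M (adjusted p = 0.00272). Sdf2l1, a partner of BiP, was at 27.7 and 37.6 FPKM in H3.1K9M and 52.2 and 50.6 in H3.1K36M (0.66, adjusted p = 0.0439). That call was lost under quantile and median-of-ratios scaling, with no filter, in a fit of this arm alone, with a replicate block and whenever H3.1K36M replicate 1, H3.1K36M replicate 2 or H3.1K9M replicate 1 was left out. Atf4, Atf3, Stc2 and Creld2 were called whichever library was left out. Without H3.1K9M replicate 1, 18 members were called, with 12 more such as Chac1, Trib3, Aars and Hspa5, and without H3.1K36M replicate 2, 4 were.

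Between the knockdowns, Slc3a2 was lower in shSuv39h1 than in shSuv39h2 (-0.29, SE 0.0732, adjusted p = 0.0473), and no other member was called, beside 6.56% of all tested genes (4.56% higher, 2.0% lower). That call was lost whichever of the 4 libraries was left out (adjusted p from 0.103 to 0.26) and under quantile scaling, where Vldlr and Xbp1 were called instead. Atf4 was 0.30 lower in shSuv39h1 by log2, with an SE of 0.102 (adjusted p = 0.121), and Chac1 0.46 lower, with an SE of 0.345 (adjusted p = 0.49). A difference between the knockdowns in these genes was therefore not shown, and these values do not show that they responded alike. On the ER side 8 of 9 genes had higher means in shSuv39h1, and the largest value was that of Xbp1, at 24.4 and 24.5 FPKM against 14.3 and 16.6 (0.63, adjusted p = 0.0531).

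Genes of the same pathways outside the 40 were examined as 5 lists. Beside them, 5.35% of all tested genes were called higher and 4.69% lower in shSuv39h2 (median 0.04), and 3.1% and 1.74% in H3.1K36M (median 0.03). In shSuv39h1 0.145% and in H3.1K9M 0.313% were called (medians 0.04 and -0.01), between the knockdowns 6.56% and between the mutants 8.24%. A single call in a list this short was not read as a result about the list. Of 24 further ATF4 targets tested, 7 rose in shSuv39h2 and none fell (median 0.47), 1 fell in H3.1K36M (Slc1a4, median -0.17) and none was called in shSuv39h1 (median 0.26) or H3.1K9M (median 0.08). Those with the smallest p in shSuv39h2 were Cth, of cysteine synthesis (0.98, adjusted p = 0.00512), Aldh18a1, of proline synthesis (0.98, 0.00663), the glycine transporter Slc6a9 (0.70, 0.0118) and the synthetase Yars (0.48, 0.0205). Cth was at 16.6 and 16.7 FPKM in shNC, 20.2 and 20.1 in shSuv39h1 and 37.2 and 30.6 in shSuv39h2. Of 8 other cytosolic tRNA synthetases, 1 rose in shSuv39h2 (Qars, 0.39, adjusted p = 0.0158). Of 26 further ER folding and degradation genes, 1 rose in H3.1K36M (the BiP co-chaperone Dnajc3, 0.51, adjusted p = 0.0251), while in shSuv39h2 3 fell and 1 rose.

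Those that fell in shSuv39h2 were the translocon subunit Sec61a1, the lectin chaperone Canx and the disulfide isomerase P4hb. Sec61a1 was at 85.4 and 84.8 FPKM in shNC and 55.8 and 56.9 in shSuv39h2 (-0.59, adjusted p = 0.00313). Canx was at 156 and 145 FPKM in shNC and 102 and 104 in shSuv39h2 (-0.54, adjusted p = 0.00326), and P4hb differed by -0.33 (adjusted p = 0.0329). Derl3, of ER-associated degradation, rose (0.64, adjusted p = 0.00731). Between the knockdowns, Canx (0.56), Sec61a1 (0.54), Sec61b (0.32) and the eIF2alpha kinase inhibitor Impact (0.46) were higher in shSuv39h1, and Cth (-0.72), Gdf15 (-0.64) and Hspa1a (-0.51) were lower. Between the mutants, Slc1a4 (-0.98), Slc38a2 (-0.69), Slc6a9 (-0.53) and Hspa1a (-0.49) were lower in H3.1K36M than in H3.1K9M, and Hspb1 was higher (0.52). Among 14 stress sensors and eIF2alpha regulators, 1 was called against a control, Ppp1r15b, a subunit of the eIF2alpha phosphatase, in shSuv39h2 (0.44, adjusted p = 0.00723). In that comparison 10.0% of all tested genes were called. Of 9 cytosolic heat shock genes, Hspb1 rose in H3.1K36M (0.57, adjusted p = 0.00851) and the near-identical Hspa1a and Hspa1b in shSuv39h2 (0.52 and 0.63), a pair between which the authors' counting could split reads. The sensors Eif2ak3 (PERK), Eif2ak4 (GCN2), Ern1 (IRE1) and Atf6 were called in no comparison with a control.

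**Figure D4:**
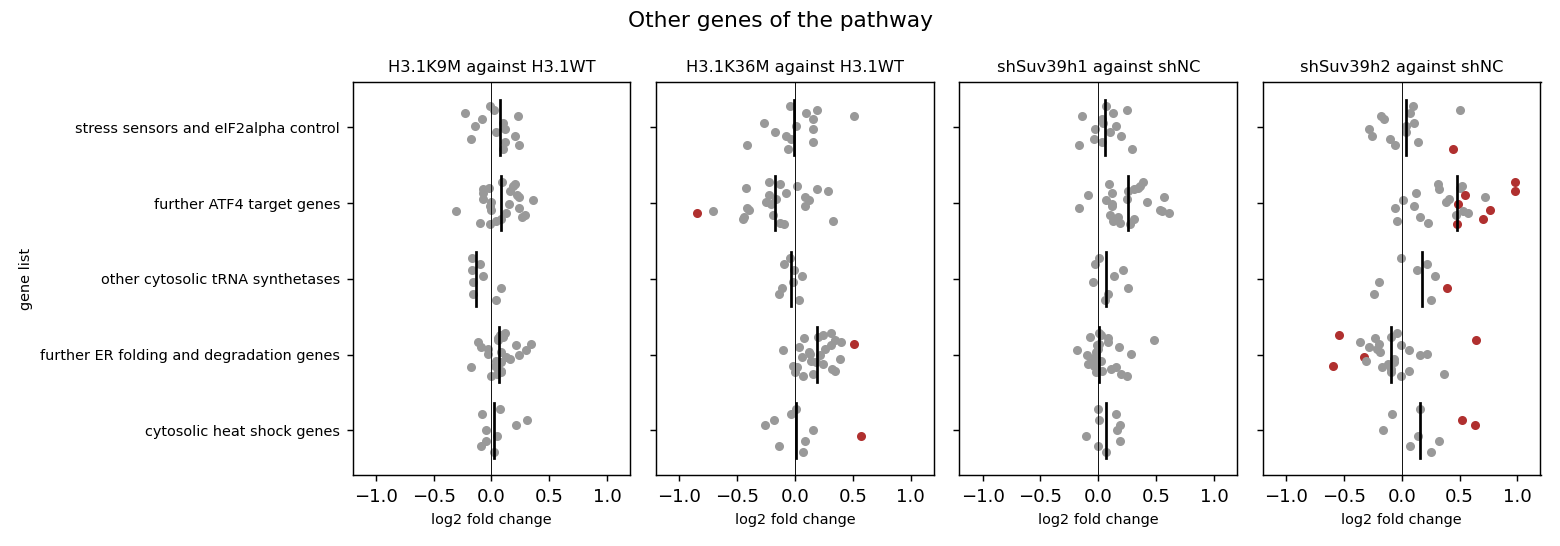
Log2 fold change of genes outside the 40 members, in 5 lists, in each comparison with a control, with called genes set apart. Further ATF4 targets lie to the right in shSuv39h2 (median 0.47, 7 of 24 called, beside 0.04 and 5.35% called higher over all tested genes). The further ER genes that passed there are Sec61a1, Canx and P4hb, to the left, and Derl3, to the right.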

How the data were processed

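The authors deposited FPKM by gene symbol, 1 value column for each of 12 libraries. TopHat2 2.0.13, Cuffdiff 2.2.1 and mm10 stand in the submitters' processing notes. What each tool did, its settings and the annotation were not given in the sources used here, nor was whether the arms were normalized together, so tests stayed within an arm. The unit was inferred from the values. In 1123 low genes each value was scaled by library depth and divided by the lowest value of its gene. Of 7725 such ratios 72.2% were whole within a tolerance of 0.05, where evenly spread ratios give 10%. The depths were fitted to low values of the same libraries, so part of this share is built in. At the annotated transcript length, 202 of 535 low values were whole in H3.1K9M replicate 1 and 158 of 519 in shNC replicate 2. The labels name the NEBNext Ultra and TruSeq kits without tying either to a library, so a kit difference between groups and the difference between lines cannot be told apart if the kits followed the groups. Cuffdiff can scale libraries to each other, which would change levels between libraries.

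Values were used as deposited. limma 3.58.1 in R 4.3.3, with an intensity trend, was fitted to log2(FPKM + 1) of the 13109 genes that reached 1 FPKM in 2 or more libraries, in 1 fit of 6 group means (6 residual and 3.66 prior degrees of freedom). Fold changes on this scale understate those of low genes, and ratios of means are of FPKM. Tests were two-sided. Medians over lists are descriptions with no test. Alternatives were a pseudocount of 0.1, scaling by quantiles or median of ratios, no filter or a filter of 5 FPKM, a fit of 1 arm, a replicate block, all 31 and 9 genes as branches, and each library left out. Of these steps, the limma fit alone was run on simulated data, for H3.1K36M against H3.1WT. The planted changes were larger than most of those called here, so that run does not test calls of smaller changes.

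Members, lists and tests were chosen with earlier results of these data known. Named throughout are Atf4, Chac1, Pck2, Asns, Hspa5, Hsp90b1, Pdia4, Xbp1, each member past the threshold, and the 4 members of smallest p in each comparison with a control. Of the other pathway genes, each called gene was named, or the 4 of smallest p where more than 4 were called. Names from outside this rule, such as Ddit3, Phgdh and Ddit4, stand beside these by role.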

Additional observations from a re-analysis of the deposited data

How the results depend on the processing

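Of 27 calls of a member in a comparison, 297 values under other settings kept the call in 203 and missed the threshold in 94, and in 0 did the sign turn; fewer libraries or degrees of freedom are part of each left-out library and single-arm fit. Members called in H3.1K9M against H3.1WT numbered 0, and 1 (Nupr1) under quantile or median-of-ratios scaling, with 0 to 6 when a library was left out. In H3.1K36M against H3.1WT they numbered 6, and 2 in the single-arm fit, with 0 to 2 when a library was left out. In H3.1K36M against H3.1K9M the 7 became 4 to 18 when a library was left out. In shSuv39h1 against shNC the 1 became 0 in the single-arm fit and 0 to 1 when a library was left out, and in shSuv39h2 against shNC the 12 became 4 to 9. Between the knockdowns the 1 became 0 in the single-arm fit, 0 with a filter of 5 FPKM and 2 under quantile scaling, with 0 to 1 when a library was left out; Slc3a2 was called in none of these, and the 2 were Vldlr and Xbp1 and the 1 Vldlr. The amino acid branch minus the ER branch ranged, over left-out libraries, from -0.54 to 0.30 in H3.1K9M (-0.14 with all, turning to 0.30 without H3.1K9M replicate 1), from -0.80 to -0.62 in H3.1K36M against H3.1WT (-0.71 with all), from -1.01 to -0.17 in H3.1K36M against H3.1K9M (-0.59 with all) and from 0.19 to 0.41 in shSuv39h1 (0.30 with all). Over all 31 and 9 genes it was 0.05 in shSuv39h1 and 0.45 in shSuv39h2, against 0.30 and 0.59 for the narrower branches. With the replicate number as a block, 3 members were called in H3.1K36M against H3.1WT, 0 in shSuv39h1 and 9 in shSuv39h2. In shSuv39h2 Aars, Psat1, Shmt2 and Slc7a5 then missed the threshold and Vldlr passed. Deviations of same-numbered libraries correlated at -0.384 between H3.1WT and H3.1K9M, -0.019 between H3.1WT and H3.1K36M, -0.242 between shNC and shSuv39h1 and 0.383 between shNC and shSuv39h2. The main fit did not pair the libraries because the replicate numbers are not stated to mark a shared batch. Whether same-numbered libraries of shNC and shSuv39h2 shared a batch was not tested. Where calls moved, the cause was not tested. Chac1 rested on about 86 fragments in shNC replicate 1, 296 in shNC replicate 2 and 836 in H3.1K9M replicate 2. The part of depth in its spread between libraries was not tested.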
